A study of Homo sapiens with 12 samples.

Results

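The IGF binding proteins and IGF receptors described here are 10 genes chosen by name, namely IGFBP1 to IGFBP7, IGF1R, IGF2R and INSR. They are 10 of the 54127 genes counted in RNAseq of C4-2 cells, an androgen-responsive prostate cancer line derived from LNCaP. Of the 10, 5 had enough reads to be tested, among 14505 genes tested in all. The choice was made with values of PBKi against DMSO already known, so the members' values in that comparison are given as a description, without p-values.

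All 12 libraries came from this 1 cell line, grown in RPMI with 10% FBS. In 6 of them the cells had received the DMSO vehicle, and in the other 6 they had received 1 µM PBKi (HI-TOPK-032, an inhibitor of the catalytic activity of the kinase PBK), and treatment lasted 6 h. The comparison asks how transcript levels differ between cells given this inhibitor and cells given the vehicle. It holds no measure of PBK kinase activity, so blocked PBK and other actions of the compound cannot be told apart. The labels do not say whether the replicates were separate cultures, so the p-values given here measure the spread between these samples, which may be technical.

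The IGF system controls growth and survival through IGF1 and IGF2, small secreted growth factors. IGF1R and INSR are receptor tyrosine kinases that pass the signal to adaptor proteins and to the PI3K and AKT pathway, whereas IGF2R has no kinase, takes up IGF2 for degradation and carries lysosomal enzymes. The secreted IGFBPs hold IGFs away from the receptors or deliver them to the cell, and proteases that cut IGFBPs set the IGFs free. In prostate epithelium the androgen-induced kallikrein KLK3, known clinically as PSA, is one such protease and cuts IGFBP3.

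Promoter sequence is shown for the 4 members that differed between PBKi and DMSO, so that the regions upstream of genes that moved in opposite directions can be read side by side. Each line gives the 250 bases before a RefSeq start on the strand of the gene, 5′ to 3′ on GRCh38.p14, and capitals mark CpG dinucleotides. The table held 3 windows for IGFBP2, of which the middle one, the richest in CpG, is shown.
IGFBP3, chr7:45921273-45921522, minus strand: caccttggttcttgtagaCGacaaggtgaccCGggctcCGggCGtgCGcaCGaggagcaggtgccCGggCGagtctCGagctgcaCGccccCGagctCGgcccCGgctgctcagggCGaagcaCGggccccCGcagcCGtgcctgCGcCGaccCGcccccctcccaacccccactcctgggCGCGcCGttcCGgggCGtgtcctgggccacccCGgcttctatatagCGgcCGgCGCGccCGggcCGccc
IGF2R, chr6:159968832-159969081, plus strand: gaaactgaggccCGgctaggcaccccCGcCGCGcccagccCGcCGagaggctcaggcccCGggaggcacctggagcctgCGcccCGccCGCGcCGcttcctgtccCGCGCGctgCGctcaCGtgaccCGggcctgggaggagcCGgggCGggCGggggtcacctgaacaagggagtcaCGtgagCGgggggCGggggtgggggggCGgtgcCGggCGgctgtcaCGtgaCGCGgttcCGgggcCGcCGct
IGFBP2, chr2:216633170-216633419, plus strand: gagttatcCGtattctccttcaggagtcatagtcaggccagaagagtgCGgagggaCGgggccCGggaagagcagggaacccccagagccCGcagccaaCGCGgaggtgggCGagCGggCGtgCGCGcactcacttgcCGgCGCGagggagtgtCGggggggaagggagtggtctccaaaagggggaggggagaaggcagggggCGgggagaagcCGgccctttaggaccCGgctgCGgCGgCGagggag
IGF1R, chr15:98648289-98648538, plus strand: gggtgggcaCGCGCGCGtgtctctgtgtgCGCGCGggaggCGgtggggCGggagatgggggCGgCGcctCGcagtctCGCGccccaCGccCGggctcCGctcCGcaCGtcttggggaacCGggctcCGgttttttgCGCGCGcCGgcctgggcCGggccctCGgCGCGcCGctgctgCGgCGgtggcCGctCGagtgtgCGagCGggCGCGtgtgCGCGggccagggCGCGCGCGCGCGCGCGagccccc

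The 4 windows shown were above the median promoter window of 58% GC and 11 CpG, whereas the first and last IGFBP2 windows were below it, with 56.8% GC and 7 CpG and with 56.4% GC and 4 CpG. The IGFBP3 window was 76% GC with 32 CpG, a number that 9.52% of the 35116 RefSeq windows reached. IGF2R had 33 CpG (reached by 8.15% of windows) and the IGFBP2 window 22 (28.0%). IGF1R had 48 CpG, which 0.262% of windows reached. In number of CpG, the windows shown for the members called higher in PBKi thus lay between those of the members called lower.

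Motifs were searched on both strands of windows of 300 bases, the 250 shown plus 50 after the start. RefSeq windows were found for 8 of the 10 members, 10 windows in all. The forkhead motif GTAAACA, held by 3.42% of all windows, was found in IGFBP6 and in no other member. Its variant TTGTTTAC (0.954% of windows) and the antioxidant response motif TGACNNNGC (13.3%) were found in none of the 10. The half-site AGAACA of the androgen and glucocorticoid receptors (14.8% of windows) was in the first and last IGFBP2 windows but not in the middle one, and TATAAA (11.5%) was 29 bases before the IGFBP4 start. A match is a stretch of letters and not a bound site.

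Reads on genes ranged from 9663203 to 28029908 per library in DMSO and from 13122415 to 22817803 in PBKi. DMSO replicate 5 had the fewest reads and 3 sequencing lanes where every other library had 4, and it stood apart for several genes below. PBKi replicates 3 and 6 had the highest shares of reads outside genes, at 9.30% and 8.83%, against 5.74% to 6.96% in the other 10 libraries. All 8 luminal prostate epithelium markers were detected, and their summed level was 4726 to 5572 CPM in DMSO and 2803 to 3554 CPM in PBKi, most of it KLK3. The summed markers of other cell types were at most 1.84 CPM for basal cells, 24.0 for fibroblasts and muscle (mostly COL1A1), 7.57 for endothelium (mostly VWF) and 6.38 for immune cells (mostly CD68). The immune sum was 2.77 to 4.70 CPM in DMSO and 5.24 to 6.38 CPM in PBKi, while the defining marker PTPRC had 3 and 8 reads per group. The part of these markers in the results was not tested. PBK itself went from 219 ± 37.2 to 165 ± 15.1 CPM (SD, n = 6 each).

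IGFBP3, IGFBP2, IGF2R and IGF1R differed between PBKi and DMSO at an adjusted p under 0.05 in the fit across all genes, and INSR did not. IGFBP3 and IGF2R were higher in PBKi and IGFBP2 and IGF1R lower. Over all 14505 genes, 41.7% passed that threshold, 20.1% as higher and 21.5% as lower in PBKi. Among the 5 tested members 3 had groups that did not overlap, which was so for 20.1% of all genes. Nothing is read from these counts of members, since this comparison chose them. In a bulk sample, fewer cells of a kind and less RNA per cell cannot be told apart.

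IGFBP3 (ENSG00000146674, minus strand of chromosome 7 of GRCh37, chr7:45951844-45961473) encodes the main IGF carrier of serum, which also binds to cell surfaces. In DMSO its level, in CPM (library-size scaled counts, with TMM factors), was between 10.7 and 18.8 with a median of 15.5 CPM, and in PBKi between 63.0 and 172 with a median of 124 CPM. The groups lay far apart, the lowest PBKi library being replicate 5 at 63.0 CPM and the highest DMSO library replicate 2 at 18.8 CPM. These levels rest on 129 to 345 reads per DMSO library and 938 to 3285 per PBKi library. Group means were 15.2 ± 2.81 and 117 ± 39.3 CPM (SD, n = 6 each). The log2 fold change was 2.96 (SE 0.21), a fitted difference of 7.80-fold. Ranked from the highest log2 fold change, IGFBP3 was number 98 of the 14505 genes tested. The spread within PBKi was wide, with replicates 4 and 5 (82.1 and 63.0 CPM) below the other 4 libraries (122 to 172 CPM).

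IGFBP2 (ENSG00000115457, plus strand, chr2:217497551-217529159), a binding protein made by many epithelial cancers, was the most abundant IGFBP transcript of DMSO cells. It was between 87.9 and 123 CPM in DMSO with a median of 92.4 CPM, and between 47.4 and 71.6 CPM in PBKi with a median of 61.8 CPM. The groups did not overlap, and the highest value, 123 CPM, was that of DMSO replicate 5, the other 5 DMSO libraries reaching 99.8 CPM. The means of 97.3 ± 13.3 and 61.7 ± 9.52 CPM (SD, n = 6 each) gave a log2 fold change of -0.66 (SE 0.10), so that IGFBP2 was 1.58-fold higher in DMSO. Without DMSO replicate 5 the log2 fold change was -0.58, and without it and PBKi replicate 3 it was -0.51.

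**Figure D1:**
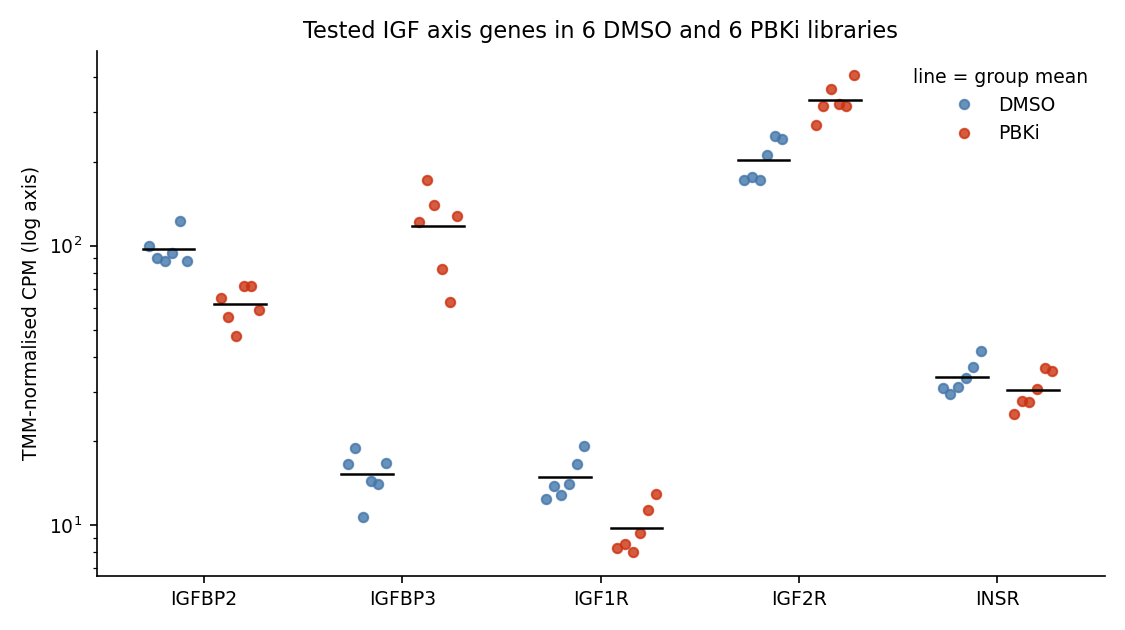
TMM-normalised CPM (log axis) of the 5 tested members in 6 DMSO and 6 PBKi libraries, with points in order of replicate number and a line at each group mean. IGFBP3 in PBKi (63.0 to 172 CPM) lies above every DMSO library (10.7 to 18.8 CPM), IGFBP2 and IGF2R are also separated, and the groups overlap for IGF1R and INSR.

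The other 5 binding proteins were at the edge of detection. IGFBP1, a binding protein known from liver, had 0 to 3 reads per library in DMSO (7 in all) and 1 to 6 in PBKi (19 in all). IGFBP4, which holds IGFs in an inactive complex, had 13 reads over the DMSO libraries and 24 over the PBKi libraries. IGFBP5, which binds to extracellular matrix, went from 30 to 17 reads in all, with 11 of the 30 in DMSO replicate 4. None of these had the reads needed to test a difference, and every library had at most 11 reads of any of them.

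IGFBP6, with a preference for IGF2, had 7 reads over the DMSO and 9 over the PBKi libraries. IGFBP7, a low-affinity relative, had 0 reads in all 12 libraries, which allows a level of up to 0.0305 CPM over the DMSO group and 0.0298 CPM over the PBKi group (3 counts over the group, counting error only). Of the IGFBP7 exons, 13.5% lie opposite exons of POLR2B on the other strand, and the strand setting of the counting is not given in the sources used here. IGFBP5 lies 7.67 kb from IGFBP2 on chromosome 2, and IGFBP1 lies 18.6 kb from IGFBP3 on chromosome 7, so each of the expressed binding protein genes had a neighbour of its own family with almost no reads.

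IGF2R (ENSG00000197081, plus strand, chr6:160390114-160534539), the cation-independent mannose 6-phosphate receptor, had the most reads of the receptors. It lay between 171 and 246 CPM in DMSO with a median of 194 CPM and between 269 and 409.5 CPM in PBKi with a median of 319 CPM. Every PBKi library was above every DMSO library. The means of 203 ± 34.6 and 333 ± 48.0 CPM (SD, n = 6 each) gave a log2 fold change of 0.72 (SE 0.11), or 1.64-fold. Of its exons, 2.53% are shared with the pseudogene CHP1P2, which had 21 reads in all.

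IGF1R (ENSG00000140443, plus strand, chr15:99191768-99507759), the signalling receptor of IGF1 and IGF2, lay between 12.4 and 19.2 CPM in DMSO with a median of 13.9 CPM. In PBKi it lay between 8.01 and 12.9 CPM with a median of 8.95 CPM. The ranges overlapped, as PBKi replicate 6 (12.9 CPM) was above DMSO replicates 1 and 3. Within replicates 1 to 3, and again within replicates 4 to 6, each DMSO library was above each PBKi library. Its log2 fold change was -0.60 (SE 0.13), and IGF1R was 1.51-fold higher in DMSO.

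INSR (ENSG00000171105, minus strand, chr19:7112266-7294425), the insulin receptor, which also forms hybrids with IGF1R, was between 29.4 and 42.0 CPM in DMSO and between 24.9 and 36.4 CPM in PBKi. The groups overlapped widely. The log2 fold change of -0.15 (SE 0.10) did not pass the threshold, which does not show that INSR was the same in both groups. With the replicate set (1 to 3 or 4 to 6) as a covariate it was -0.16 and passed. For both IGF1R and INSR, replicates 4 to 6 were higher than replicates 1 to 3 in each group.

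The receptors have long transcripts (14231 bases for IGF2R, 12235 for IGF1R and 9463 for INSR, the longest annotated ones), and calls varied with length over all genes. Of 627 tested genes with a transcript of 10000 bases or more, 160 were higher and 78 lower in PBKi, with a median log2 fold change of 0.08. Of 2802 with transcripts under 2000 bases, 431 were higher and 660 lower (median -0.07). The part of length in the receptors' values was not tested. IGF2R and IGF1R, both over 10000 bases, were called in opposite directions.

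Per length, in RPKM (CPM divided by the kilobases of annotated exon), the order of the members in DMSO was IGFBP2, IGF2R, IGFBP3, INSR and IGF1R. IGFBP2 stood at 20.5 ± 2.80 and IGF2R at 8.97 ± 1.53 RPKM (SD, n = 6 each), without overlap. IGFBP3 (3.32 ± 0.615) and INSR (3.14 ± 0.435) overlapped, and IGF1R was lower at 1.06 ± 0.187 RPKM. The other 5 were at 0.0603 RPKM or less.

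In PBKi the order per length was IGFBP3, IGF2R, IGFBP2, INSR and IGF1R. IGFBP3 was at 25.7 ± 8.61 RPKM, a range that overlapped that of IGF2R (14.7 ± 2.12), which in turn overlapped that of IGFBP2 (13.0 ± 2.01; SD, n = 6 each). With this length, the places of these 3 are therefore not separated by the spread between libraries. INSR (2.81 ± 0.430 RPKM) and IGF1R (0.698 ± 0.141 RPKM) were below them without overlap. With the longest transcript as the length, the 5 members kept the same order in both groups, although IGFBP3 was then at 5.77 RPKM in DMSO and 44.6 RPKM in PBKi. In PBKi, IGF2R was then at 23.4 RPKM and IGFBP2 at 14.0 RPKM, and the ranges of IGF2R and IGFBP2 no longer overlapped.

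Summed over IGFBP1 to IGFBP7, binding protein transcripts amounted to 24.1 ± 2.81 RPKM in DMSO and 39.0 ± 7.05 RPKM in PBKi (SD, n = 6 each). IGFBP3 contributed 10.5% to 17.7% of the sum in the DMSO libraries and 47.0% to 75.5% in the PBKi libraries. The share of IGFBP2 was 82.1% to 88.8% in DMSO against 23.6% to 51.5% in PBKi. Since shares of a sum are tied together, the lower share of IGFBP2 holds both its own lower level and the higher level of IGFBP3. The other 5 IGFBPs together held 0.859% ± 0.473 in DMSO and 0.844% ± 0.357 in PBKi (SD, n = 6 each).

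**Figure D2:**
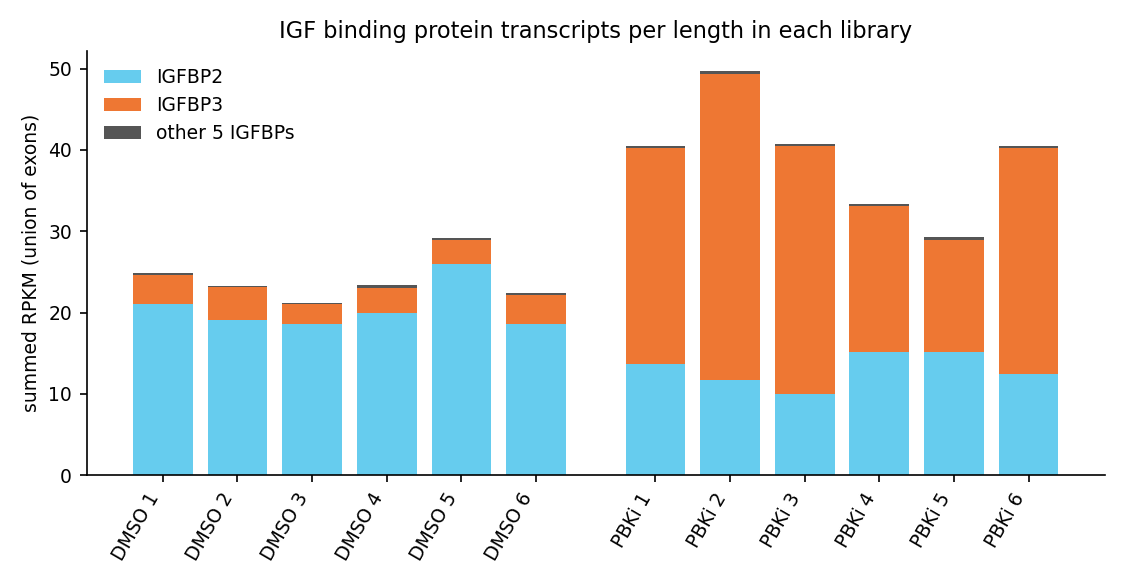
Summed RPKM of the IGFBP genes in each library, stacked as IGFBP2, IGFBP3 and the other 5. DMSO libraries are mostly IGFBP2 (82.1% to 88.8% of the sum), IGFBP3 reaches 47.0% to 75.5% in PBKi libraries, and the other 5 are barely visible in any library.

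The balance of the receptors per length differed as well. The ratio of IGF1R to INSR was 0.310 to 0.365 in DMSO and 0.227 to 0.282 in PBKi, without overlap, whereas the CPM of each of these receptors overlapped between groups. The ratio of IGF2R to IGF1R was 7.71 to 9.24 in DMSO and 17.4 to 28.0 in PBKi. It thus went from 8.47 ± 0.639 to 21.5 ± 3.65 (SD, n = 6 each), and the highest ratio was that of PBKi replicate 3. These ratios follow from values that chose the members, so they carry no test.

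Libraries of replicates 1 to 3 and of replicates 4 to 6 separated in an earlier look at these data, and the labels do not say what sets them apart. For IGFBP3 the first set (1 to 3) gave a log2 fold change of 3.29 and the second set (4 to 6) one of 2.59. That of IGF2R was 0.88 and 0.59, that of IGFBP2 -0.73 and -0.59, that of IGF1R -0.64 and -0.58 and that of INSR -0.18 and -0.13. Each member thus had the same direction in both sets.

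Whether the treatment effect differed between the sets is a measure that the choice of members did not use, and it was tested as an interaction over all genes. For IGFBP3 the effect was lower by 0.68 (SE 0.33) on the log2 scale in replicates 4 to 6, with an edgeR adjusted p of 0.927 (unadjusted p = 0.0510). For IGF2R the difference was -0.28 (SE 0.15, edgeR adjusted p = 0.927, unadjusted p = 0.0754). The differences of IGFBP2 (0.15, SE 0.17, edgeR adjusted p = 0.955), IGF1R (0.06, SE 0.18, edgeR adjusted p = 0.984) and INSR (0.06, SE 0.13, edgeR adjusted p = 0.979) were smaller than their errors. Of the 14505 genes, 0 passed the adjusted threshold (0%) in edgeR and 700 had an unadjusted p under 0.05. With no filter on low counts, edgeR called 32 genes, IGFBP3 among them (-0.67, adjusted p = 0.0011).

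**Figure D3:**
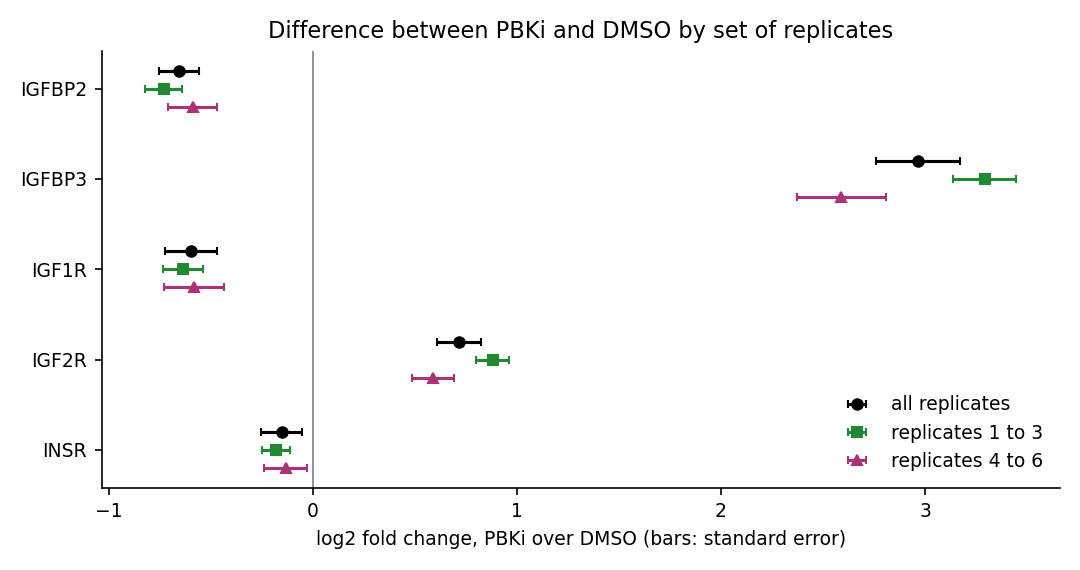
log2 fold change of PBKi over DMSO for the 5 tested members, from all replicates (circles), replicates 1 to 3 (squares) and replicates 4 to 6 (triangles), with bars of 1 standard error. IGFBP3 has the widest gap between the sets (3.29 and 2.59), and no member changes sign.

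Among the ligands, IGF1 was downregulated. Per length it was at 4.10 ± 0.618 RPKM in DMSO and 1.81 ± 0.288 RPKM in PBKi (SD, n = 6 each). It was between 27.6 and 42.0 CPM in DMSO with a median of 33.1 CPM, and between 11.9 and 17.3 CPM in PBKi with a median of 14.7 CPM. The groups did not overlap, and the log2 fold change was -1.18 (SE 0.11, edgeR adjusted p = 1.68e-07). IGF2 had 83 reads in all DMSO and 61 in all PBKi libraries, with a log2 fold change of -0.53 (SE 0.36, edgeR adjusted p = 0.244). INS, the insulin gene, had 0 reads in all 12 libraries, with the same upper limits as IGFBP7, and IGFALS, which joins IGFBP3 and an IGF in the ternary complex of serum, had 12 reads in DMSO and 18 in PBKi. Of the 4 genes of this list 2 were tested, 1 lower and 0 higher, with a median log2 fold change of -0.86 against -0.012 over all genes.

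Of 14 IGFBP proteases and protease inhibitors, 8 were tested, of which 2 were higher and 4 lower in PBKi (median log2 fold change -0.18). KLK3, the kallikrein that cuts IGFBP3, was at 2959 ± 214 CPM in DMSO and 1131 ± 241 CPM in PBKi (SD, n = 6 each; log2 fold change -1.39, SE 0.12, edgeR adjusted p = 7.68e-08). Its close relative KLK2 stood at 462 ± 53.1 and 166 ± 37.5 CPM (log2 fold change -1.48, SE 0.13, edgeR adjusted p = 1.52e-07). Reads that match both KLK2 and KLK3 may be misassigned or left out of both counts. Cathepsin D (CTSD), a lysosomal protease carried by mannose 6-phosphate receptors, moved the other way, from 90.8 ± 11.1 to 191 ± 11.7 CPM (log2 fold change 1.07, SE 0.07, edgeR adjusted p = 2.76e-09). For these 3 genes no PBKi library was within the DMSO range. HTRA1, a secreted serine protease, was also upregulated (log2 fold change 0.87, SE 0.14, edgeR adjusted p = 0.000125). ADAMTS1, a metalloprotease, was downregulated (-0.42, SE 0.08, edgeR adjusted p = 0.000283), as was STC1, a stanniocalcin (-0.91, SE 0.21, edgeR adjusted p = 0.0018, groups overlapping). STC2, another stanniocalcin, was at 261 ± 21.7 and 271 ± 20.4 CPM and was not called. PAPPA and PAPPA2, pappalysins listed as IGFBP proteases, were not tested, with 10 reads or fewer in any library.

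Of 9 secreted proteins related to the IGFBPs, 3 were tested, 1 higher, 1 lower and 1 not called, with a median log2 fold change of -0.097. CCN3 (NOV), a matrix-associated regulator of growth, went from 27 reads in all DMSO to 188 in all PBKi libraries. Its log2 fold change was 2.70 (SE 0.29, edgeR adjusted p = 9.27e-07), and its lowest PBKi library (1.54 CPM) was above its highest DMSO library (0.433 CPM). With 0 to 12 reads per DMSO library and 21 to 48 per PBKi library, CCN3 met the minimum of 10 counts in 6 libraries only through the group where it is high, so at its DMSO level in both groups it would not have been tested, and it was not tested under the minimum of 50 counts. KAZALD1 was lower (-0.26, SE 0.09, edgeR adjusted p = 0.0245) with overlapping groups, and it lost the call without PBKi replicate 3 (-0.21) or without PBKi replicate 4 (-0.23).

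Of 8 proteins listed as partners of IGFBP3, 6 were tested, 2 higher and 0 lower (median 0.088). TGFBR2, the type II TGF-beta receptor, went from 1.98 ± 0.283 to 4.38 ± 0.154 CPM (SD, n = 6 each; log2 fold change 1.15, SE 0.12, edgeR adjusted p = 5.34e-07) without overlap. RXRA, the nuclear retinoid X receptor, was higher by 0.21 on the log2 scale (SE 0.07, edgeR adjusted p = 0.0162) with overlapping groups. TMEM219, described as a cell surface receptor of IGFBP3, was at 38.0 ± 3.70 and 36.6 ± 1.80 CPM and was not called, and neither were LRP1, TGFBR1 and KPNB1.

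Of 4 related receptors 3 were tested, 2 higher and 1 lower (median 0.29). M6PR, the cation-dependent mannose 6-phosphate receptor, was higher like IGF2R but by less, from 68.0 ± 2.94 to 83.1 ± 4.06 CPM (log2 fold change 0.29, SE 0.05, edgeR adjusted p = 0.000148). The difference in size between M6PR and IGF2R was not tested. MET, the HGF receptor, went from 2.22 ± 0.348 to 5.10 ± 0.819 CPM (log2 fold change 1.21, SE 0.14, edgeR adjusted p = 2.04e-06). EGFR was lower (-0.49, SE 0.13, edgeR adjusted p = 0.0053) with overlapping groups.

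Below the receptors, 18 of 21 adaptors and early signalling genes were tested, 3 higher and 6 lower (median -0.036). The docking proteins IRS1 and IRS2 were both upregulated, with log2 fold changes of 0.40 (SE 0.10, edgeR adjusted p = 0.0038) and 0.45 (SE 0.11, edgeR adjusted p = 0.0042), and for both the groups overlapped. Both were called in replicates 1 to 3 alone (0.50 and 0.63) and neither in replicates 4 to 6 alone (0.30 and 0.26). SOCS2, a feedback inhibitor of cytokine and growth hormone signalling, went from 9.04 ± 0.927 to 4.76 ± 0.208 CPM (log2 fold change -0.94, SE 0.09, edgeR adjusted p = 2.31e-07). GRB7 (-0.56, SE 0.10, edgeR adjusted p = 0.000189) and SH2B2 (-0.60, SE 0.15, edgeR adjusted p = 0.0038), both adaptors, were lower without overlap. The third gene called higher was CRK, by 0.14 on the log2 scale (SE 0.05, edgeR adjusted p = 0.0220). It lost the call without DMSO replicate 1 (0.13).

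All 25 genes of the PI3K, AKT and mTOR list were tested, 6 higher, 4 lower and 15 not called (median 0.046). The changes were small, from -0.27 in AKT1 (SE 0.07, edgeR adjusted p = 0.0060) to 0.42 in TSC1, an inhibitor of mTOR signalling (SE 0.06, edgeR adjusted p = 3.62e-05). Without DMSO replicate 5 and PBKi replicate 3, AKT1 was at -0.17 and still called. FOXO1 (0.39, SE 0.10, edgeR adjusted p = 0.0034) and FOXO3 (0.31, SE 0.10, edgeR adjusted p = 0.0184), transcription factors held out of the nucleus by AKT, were upregulated with overlapping groups. Both were called in replicates 1 to 3 alone (0.49 and 0.48) and neither in replicates 4 to 6 alone (0.29 and 0.18). PIK3CB, a catalytic subunit (-0.22, SE 0.06, edgeR adjusted p = 0.0098), and RICTOR, a subunit of mTOR complex 2 (-0.20, SE 0.07, edgeR adjusted p = 0.0253), were lower. RICTOR lost the call when DMSO replicate 2, 4 or 6 or PBKi replicate 1, 2 or 4 was left out (-0.19 to -0.15). Of 3 IGF2 mRNA-binding proteins 2 were tested and 0 called in edgeR, with IGF2BP3 at 26.0 ± 1.76 and 25.5 ± 1.01 CPM.

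Over all 8 lists, 67 of 88 genes were tested, 16 were higher and 17 lower in PBKi, and the median log2 fold change of -0.012 was that of all genes (-0.012). Over all genes tested, 20.1% were higher and 21.5% lower. List calls were 23 higher and 18 lower in replicates 1 to 3 alone, and 6 higher and 9 lower in replicates 4 to 6. Over all genes, replicates 1 to 3 called 3376 higher and 3184 lower, and replicates 4 to 6 called 1303 and 1216. A difference in the balance of list calls between the sets was not tested.

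**Figure D4:**
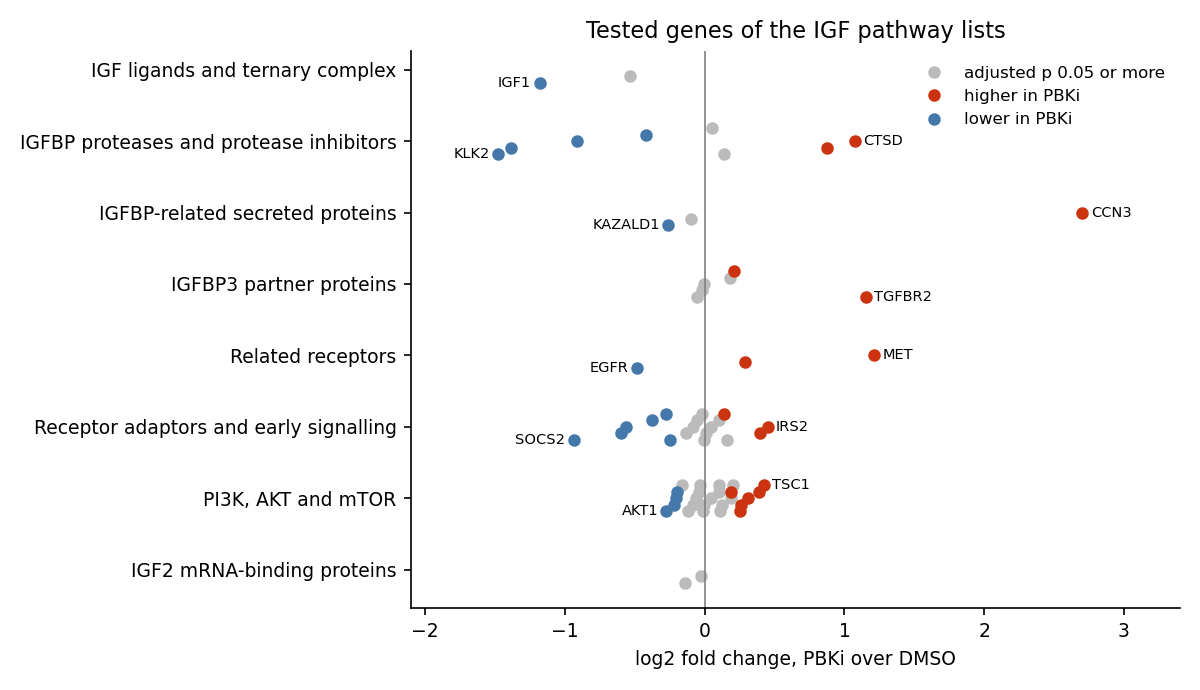
log2 fold change of PBKi over DMSO for the 67 tested genes of the 8 IGF pathway lists, coloured by the adjusted p of edgeR, with some of the called genes named. CCN3 (2.70), MET (1.21), TGFBR2 (1.15) and CTSD (1.07) lie farthest to the right, KLK2 (-1.48), KLK3 (-1.39) and IGF1 (-1.18) farthest to the left, and most PI3K, AKT and mTOR genes lie near 0.

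Genes next to the members on the chromosome were compared in the same fit. Starts within 500 kb of the start of IGFBP3 included 2 tested genes, ADCY1 and SEPTIN7P2, with log2 fold changes of -0.21 (SE 0.12, edgeR adjusted p = 0.162) and -0.33 (SE 0.15, edgeR adjusted p = 0.0962), neither called. Near IGFBP2 were SMARCAL1, higher by 0.17 (SE 0.06, edgeR adjusted p = 0.0275), and RPL37A, lower (-0.31, SE 0.06, edgeR adjusted p = 0.00072). Near IGF1R the single tested gene, SYNM, was higher (0.71, SE 0.10, edgeR adjusted p = 2.80e-05), opposite to IGF1R. Near IGF2R, 6 genes were tested, of which the organic cation transporter gene SLC22A3 (-1.31, SE 0.18, edgeR adjusted p = 1.93e-05) and TCP1 (-0.16, SE 0.06, edgeR adjusted p = 0.0255) were lower and an unnamed gene, ENSG00000230234, was higher (3.04, SE 0.28, edgeR adjusted p = 1.60e-07). Near INSR, 12 genes were tested, with PEX11G and MCOLN1 higher and PET100 lower. Over all 10 members, counting a gene once for each member it neighbours, 40.5% of 74 tested neighbours were called, near the 41.7% of all genes. This share includes IGFBP3 as a neighbour of IGFBP1 and IGFBP2 as a neighbour of IGFBP5. Both are called members, chosen with this comparison known.

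Within the groups, the libraries varied together for some members. After the group means were removed, IGF1R and INSR had a Pearson r of 0.929 over the 12 libraries, IGF2R had 0.725 with IGF1R and 0.730 with INSR, and IGFBP3 and IGFBP2 had -0.571. The points share their libraries and depth, and the receptors share long transcripts.

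Among genes whose mean log2 CPM reached 3, those that varied most like IGFBP3 over the 12 libraries were PTPRM (r = 0.905), PTGR1 (0.888), NFKBIA (0.869), CNTN3 (0.862) and THBS1 (0.859). Of these, PTPRM, PTGR1, NFKBIA and THBS1 were also called higher in PBKi, with log2 fold changes of 0.65, 2.18, 0.41 and 1.45, and CNTN3 was not called (-0.07). Over all genes tested, 20.1% were called higher and 21.5% lower. For IGFBP2 they were IDH2 (0.972), TUFM (0.967), CKB (0.965), DBNDD1 (0.963) and FBL (0.954), with transcripts of 1400 to 2889 bases. TUFM, CKB and FBL were called lower, like IGFBP2, and IDH2 and DBNDD1 were not called. For IGF1R they were USP7, SBNO1, UBXN7 and KNL1 (0.941 to 0.958), and for IGF2R DYNC1H1, DGKD, HUWE1 and ARHGAP32 (0.974 to 0.985). The longest transcripts of these 8 genes had 5831 to 20066 bases. Those of the 5 genes given for IGFBP3 had 2298 to 7789 bases, so the 2 ranges overlapped. Among all genes tested, 3672 had a longest transcript of 5000 to 10000 bases and 627 one of 10000 or more. Of the 8 genes given for IGF1R and IGF2R, KNL1 was called lower and DYNC1H1 and ARHGAP32 higher in PBKi, and the others were not called.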

How the data were processed

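C4-2 cells treated with DMSO or PBKi were profiled by RNAseq, with 6 libraries per group. Per the submitters' processing notes and the paper, single-end reads were mapped by the authors on GRCh37 (TopHat2 2.0.4) and assigned to genes (HTSeq 0.5.3p9), and the deposited values are raw counts for each gene and lane. The paper's own test was DESeq 1.10.1. The labels and the paper name different RNA extraction kits. The labels of both groups describe flow sorted cells, and those of the PBKi samples alone name an antibody against PBK, whose role in an RNAseq library is not given in the sources used here. The siPBK arm was not analysed here.

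The 47 lane files were summed to 12 libraries, since chi-square over degrees of freedom was 0.974 to 1.04 between lanes and 3.74 to 22.2 between replicates. Reads with no feature (5.74% to 9.30%), ambiguous reads (3.87% to 4.35%) and the other summary rows were left out. Genes reaching 10 counts in 6 or more libraries were fitted by the quasi-likelihood test of edgeR 4.0.16 (R 4.3.3) with TMM scaling and no covariates, and p-values were adjusted by Benjamini-Hochberg over 14505 genes at 0.05. DESeq2 1.42.0, limma-voom (limma 3.58.1), RLE factors, other filters, lanes 6 to 8, a replicate block, replicate sets and leaving out libraries were the alternatives. On simulated counts for PBKi against DMSO, with 14085 genes, 92% of 200 changed genes were recovered and 7.07% of calls were unchanged genes. For the interaction with replicate set, with 14122 genes, 62% were recovered. Each share pools planted changes of several sizes, so neither gives the recovery of a small difference. For PBKi against DMSO only 200 genes were changed in the simulation, whereas 6046 were called in the data.

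Coordinates and lengths came from GENCODE 44 mapped to GRCh37, a later annotation than the one the authors counted on. Promoters came from RefSeq on GRCh38.p14. The members, the pathway lists and the marker lists were chosen with earlier results of these data known. Named were all members, PBK, up to 3 genes per list and direction with the largest called fold change, the called neighbours of the tested members, and up to 5 genes with the highest within-group correlation. Other list genes were named after their values were seen. Some genes that this rule names are not reported here.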

Additional observations from a re-analysis of the deposited data

Results flagged for a closer look

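The highest or lowest library of a group was tested against the rest of its group with Dixon's 95% critical value for the members and the named pathway genes. Of 72 groups of 6 libraries, 8 passed, where chance gives about 5%. DMSO replicate 5, the library with the fewest reads, was the one standing apart in 6 of these 8. It had the highest DMSO value of IGFBP2, at 122.9 CPM against 87.9 to 99.8 CPM in the other 5, and IGFBP2 was still called lower in PBKi without it (log2 fold change -0.58). It also had the highest DMSO value of AKT1 (206.3 CPM against 151.0 to 170.3), of IRS1 (24.0 CPM against 15.5 to 18.3), of RXRA (143.8 CPM against 104 to 116.7) and of SH2B2 (6.60 CPM against 3.61 to 4.09). For SOCS2 it had the lowest DMSO value, 7.25 CPM against 8.94 to 9.84 CPM.

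In PBKi, replicate 3 was lowest for KLK2, at 93.9 CPM against 169.6 to 203 CPM in the other 5. PBKi replicate 6 was highest for RXRA, at 140.4 CPM against 131.6 to 134.6 CPM. What sets these libraries apart was not tested.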

How the results depend on the processing

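IGFBP3, IGF2R, IGFBP2 and IGF1R kept their direction and their call under every alternative run, and with each library left out their log2 fold changes were 2.83 to 3.10, 0.66 to 0.79, -0.69 to -0.58 and -0.68 to -0.50. INSR (-0.20 to -0.072 with a library left out) was called lower with the replicate block (-0.16), with the replicate set as a covariate (-0.16) and in replicates 1 to 3 only (-0.18). Replicates 4 to 6 alone called 1303 genes higher and 1216 lower in PBKi, and 6 and 9 of the pathway genes, whereas replicates 1 to 3 alone, with as many libraries, called 3376 and 3184 genes and 23 and 18 of the pathway genes, and the cause was not tested. With each library left out, 15 to 19 pathway genes were called higher and 15 to 17 lower. The interaction with replicate set called 32 genes with no low-count filter and 0 otherwise, and the cause was not tested. With each library left out it ranged from -0.055 to 0.19 for IGF1R and from -0.024 to 0.15 for INSR. Its sign turned for IGF1R without DMSO replicate 4 (-0.055) or PBKi replicate 6 (-0.053) and for INSR without DMSO replicate 4 (-0.024). With the longest transcript as the length, which is shorter than the union of exons, IGFBP3 was at 5.77 RPKM in DMSO and 44.6 RPKM in PBKi, its share of the IGFBP sum in DMSO was 20.7%, and the ratio of IGF2R to IGF1R was 11.8 in DMSO and 30.0 in PBKi. Leaving out DMSO replicate 5 and PBKi replicate 3 together, chosen after seeing the data, ended the call of KAZALD1 (-0.16) and of no other named gene. Calls of single pathway genes were lost mostly in replicates 4 to 6 only. Of the called pathway genes named above, RXRA, M6PR, IRS1, IRS2, CRK, SH2B2, AKT1, RICTOR, FOXO1, FOXO3 and KAZALD1 were not called there.

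Libraries with the same replicate number had correlations of their deviations from the group means of 0.0887 to 0.299 across genes. Of the 6 pairs, 1 was under 0.1. DMSO replicates 1, 3, 4 and 6 correlated best with the PBKi library of their own number, and DMSO replicates 2 and 5 with another. Whether the numbers pair the samples is not settled by this, and the main fit did not pair them. The replicate block called 3485 genes higher and 3803 lower against 2921 and 3125 without it, and 19 and 18 pathway genes. Depth limits IGFBP1, IGFBP4, IGFBP5, IGFBP6 and IGFBP7, which had at most 11 reads in any library.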
